A study of Mus musculus with 12 samples.

Results

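The 8 samples from diabetic pregnancies in a set of 12 whole NOD mouse embryo samples at embryonic day 10.5 were compared with the 4 samples from normal pregnancies. NOD is an inbred strain in which females develop autoimmune diabetes without a drug, and all 12 samples came from it. The samples were chosen by their labels alone: 4 diabetic pools, 4 control pools, and 4 embryos, also from diabetic pregnancies, that were measured singly and had a neural tube defect (NTD embryos). Each pool held equal amounts of RNA from 4 embryos, drawn from 4 separate pregnancies. The comparison covered 7341 genes with a probe detected above the negative controls on at least 4 of the 12 arrays.

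Dams counted as diabetic above 250 mg/dL of blood glucose, and the protocol gives them an injection of 5 units of gonadotropin to bring on estrus. Whether control dams received it is not stated, so maternal diabetes and this injection cannot be told apart. In the NTD embryos the defect, the measurement of a single embryo and the diabetic pregnancy cannot be told apart from each other, and it is not stated if embryos with defects entered the diabetic pools or if litters were shared between the groups. The type of defect, the glucose of each dam and the array positions are not given in the sources used here.

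The neural tube of the mouse closes shortly before the stage sampled, and maternal diabetes raises the rate of embryos in which it fails to close. Embryos at this stage divide fast, and dividing cells make large amounts of replication-dependent histone transcripts, which are produced in S phase, end in a stem-loop in place of a poly(A) tail, and are degraded when DNA synthesis ends. Several noncoding transcripts of the embryo serve as precursors of microRNAs, short RNAs that lower the output of messenger RNAs matching their seed, the bases near their 5′ end.

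Of 32766 probes, each array detected 12546 to 13736 (38.3% to 41.9%), and correlations of log2 intensity between samples of a group, taken across genes, were 0.995 to 0.997 in control pools, 0.991 to 0.996 in diabetic pools and 0.984 to 0.992 in NTD embryos. Markers of heart (Myh6, Myl7), primitive blood (Hba-x, Hbb-y, Hbb-bh1), neurons (Dcx), somites (Meox1), endoderm (Afp) and vessels (Cdh5) had a probe detected on all 12 arrays, whereas the 2 probes of the vessel gene Kdr were detected on 0 arrays. The Y-linked gene Kdm5d had log2 intensities of 8.19 and 8.28 in control pools 1 and 2, 4.60 and 4.42 in control pools 3 and 4, and 7.23 to 8.97 across diabetic pools. NTD embryos 1 and 2 stood at 9.18 and 9.05, whereas NTD embryos 3 and 4 stood at 4.59 and 4.48. The share of male embryos therefore differed among samples of a group. Only a fit with Kdm5d as a covariate, given with the counts below, took it into account.

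Over the 8 diabetic against the 4 control samples, 70 genes differed at an adjusted p below 0.05 (limma, Benjamini-Hochberg over all genes), which is 0.954% of those tested. Of these, 28 were higher in the diabetic samples (0.381% of genes) and 42 lower (0.572% of genes). At an unadjusted p below 0.05 the count was 881 (12.0%), with 471 higher (6.42%) and 410 lower (5.59%). The median log2 difference over all 7341 genes was 0.01, and 53.4% of genes lay above 0. The falls were the larger changes: the median log2 difference was -0.90 among the 42 lower genes and 0.38 among the 28 higher genes, and 20 genes fell at least 2-fold while 0 rose by that much. The lower genes were led by replication-dependent histones, 22 of the 42, and by noncoding transcripts, and the higher genes were led by Cln3, a lysosomal membrane protein, and Ier3, an immediate early gene. Under scaling of the arrays to a common median in place of quantile normalization, which moved the median of all genes to -0.08, 6 genes were higher and 119 lower. The count rests on few controls. It fell to 32, 23, 22 and 28 without control pools 1, 2, 3 and 4 in turn, to 43 and 44 without diabetic pools 1 and 3 and to 43 without NTD embryo 3, and it rose to 127 without NTD embryo 1. Without any 1 sample in turn, 19 of the 70 genes kept their call: 7 of the histone list and 12 others, among them Erich5, Mir17hg, 6430411K18Rik, Mir99ahg, Hspa1a, Ifngr2, Cln3, Csf2ra, Arrdc4 and Gchfr. With Kdm5d as a covariate 88 genes were called, among them 61 of the 70. Against control pools 1 and 2 alone 4 were called. The latter fit has fewer controls and keeps NTD embryos 3 and 4. It therefore cannot separate the share of male embryos from the loss of controls.

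**Figure D1:**
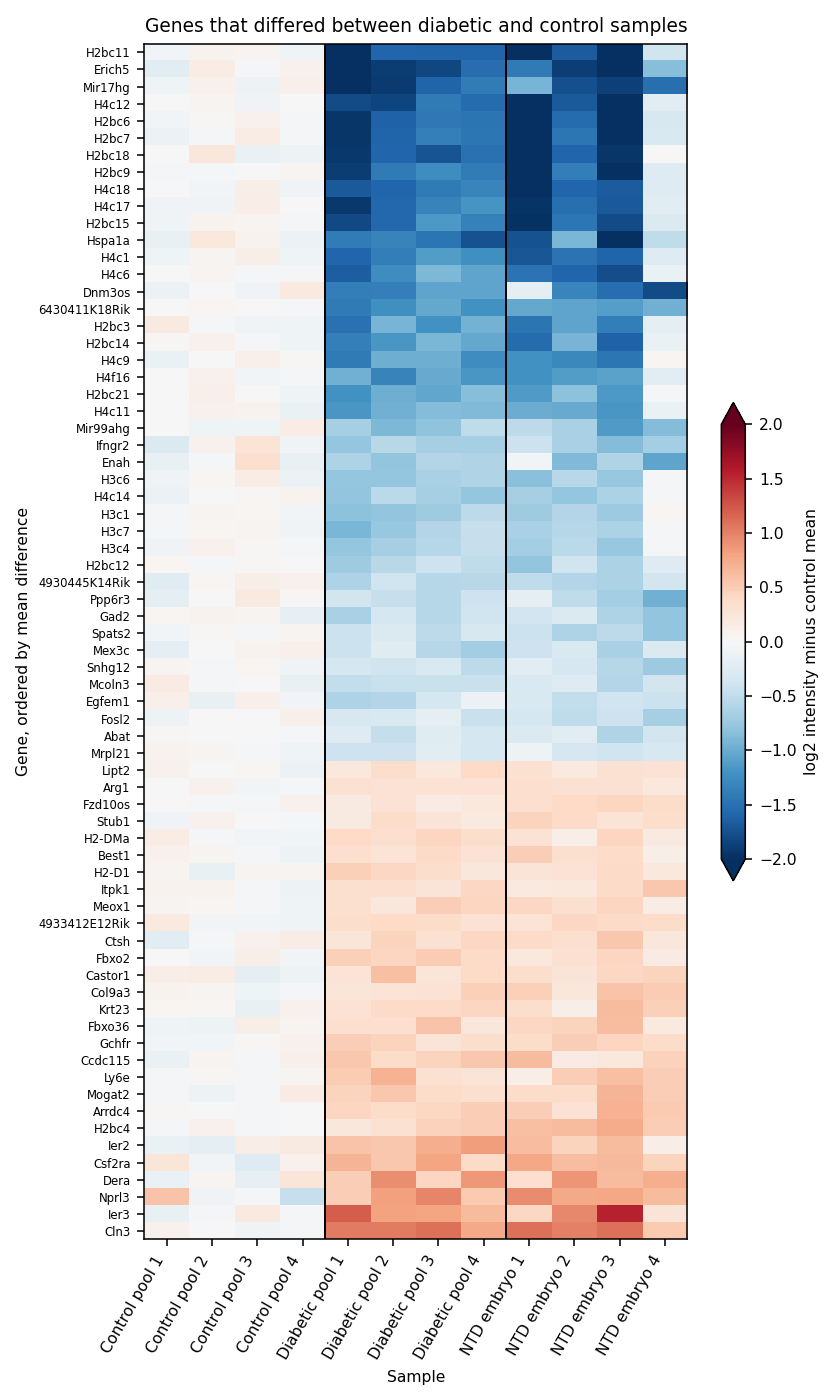
Log2 intensity minus the mean of the 4 control pools (colour) for the 70 called genes (rows, ordered by mean difference) in the 12 samples (columns). The 42 lower genes are blue and the 28 higher genes red across the 8 diabetic samples; the lower histone rows are pale in NTD embryo 4.

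Each of the 70 genes met the rule for a change common to both kinds of diabetic sample: the 4 diabetic pools and the 4 NTD embryos each differed from the control pools in the same direction at an unadjusted p below 0.05. Among all 7341 genes, 5.07% met that part of the rule. Both comparisons use the same 4 control pools and the pools and embryos also made the call, so this count is no independent check. In 57 of the 70 genes, 25 higher and 32 lower, the 8 diabetic samples all lay beyond the 4 control pools, against 2.44% of all genes. In the other 13 at least 1 diabetic sample lay inside the control range. NTD embryo 4 was the sample inside for 8 genes of the histone list and for Ier2. For Enah it was NTD embryo 1, for Egfem1 diabetic pool 4, for H2-DMa NTD embryo 2 and for Nprl3 diabetic pools 1 and 4.

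Set directly against each other, a comparison that uses no control sample, the NTD embryos and the diabetic pools gave 0 called genes (0.00%), with 224 at an unadjusted p below 0.05 (3.05%). The smallest adjusted p over all genes was 0.215. Among the 70 called genes the median absolute difference between NTD embryos and diabetic pools was 0.07 on the log2 scale and the largest 0.30, in Erich5. The fit behind the call counted such differences as spread and so favoured genes in which they are small. These values are therefore no independent check. Two-sided limma p-values below 0.05 before adjustment were found for 2 of the 70, from the limma fit across all genes. H2bc4 was 0.25 ± 0.09 (SE) higher in the NTD embryos than in the pools and Fzd10os 0.17 ± 0.08 higher, each at a limma adjusted p of 0.996, the smallest among the 70. The ubiquitin ligase subunit Fbxo2 was at -0.17 ± 0.09 and the noncoding 6430411K18Rik at 0.19 ± 0.09. Spats2, a cytoplasmic RNA-binding protein, was detected in 3 of 4 diabetic pools and 0 of 4 NTD embryos, so no difference between them is given; against the control pools it was at least 1.33-fold lower in the NTD embryos.

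**Figure D2:**
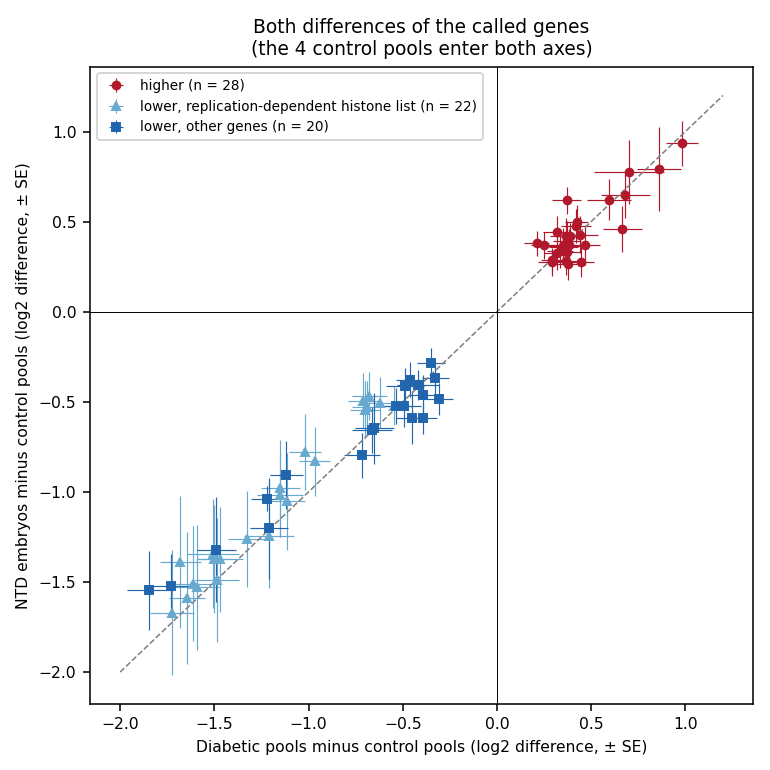
Log2 difference from the control pools of the diabetic pools (x axis) and of the NTD embryos (y axis), each ± SE from its own fit, for the 70 called genes; triangles mark the 22 lower histone genes, squares the 20 other lower genes, circles the 28 higher genes, and the dashed line equal differences. All points lie in the lower left or the upper right of the plot, and the 4 control pools enter both axes.

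Replication-dependent histone genes made up the largest group. Of 47 measured, 22 fell, 1 rose (H2bc4) and 24 were not called, and the median log2 difference of the 47 was -0.56, against 0.01 over all genes. H2bc11, which encodes a core histone H2B, fell most. Its log2 intensity was 10.51, 10.63, 10.61 and 10.48 in control pools 1 to 4, 8.43, 8.98, 8.96 and 8.96 in diabetic pools 1 to 4, and 8.23, 8.90, 8.27 and 10.16 in NTD embryos 1 to 4. All 8 diabetic samples lay below the control pools, and NTD embryo 4 lay close to them. The difference was -1.70 ± 0.26 (SE; adjusted p = 0.00652), a 3.24-fold fall.

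H4c12, a core histone H4 gene, had intensities of 7.88, 7.94, 7.81 and 7.89 in the control pools, 6.09, 6.04, 6.47 and 6.34 in the diabetic pools, and 5.57, 6.20, 5.73 and 7.66 in the NTD embryos. The order was that of H2bc11: NTD embryos 1 and 3 lowest, NTD embryo 4 next to the controls. Its difference was -1.62 ± 0.27 (adjusted p = 0.00989). H2bc6 and H2bc7 fell by 1.56 each on the log2 scale. The H2bc18 probe was detected in 4 of 4 control pools and in 1 of 8 diabetic samples, so its measured difference of -1.53 rests mostly on undetected arrays; in the diabetic pools, where it was undetected, the fall was at least 2.59-fold. H2bc9, H4c18, H4c17, H2bc15, H4c1 and H4c6 fell by 1.49 to 1.23, and H2bc3, H2bc14 and H4c9 by 1.08 to 1.07. Smaller falls were those of H2bc21 and H4c11 (each by 0.90), H4c14 (by 0.61), H2bc12 (by 0.53) and the H3 genes H3c6, H3c1, H3c7 and H3c4 (by 0.62 to 0.56). H4f16, a further H4 gene outside the list and chosen after its values were seen, was likewise detected in 1 of 8 diabetic samples, with a measured difference of -1.01 and a fall of at least 1.73-fold in the diabetic pools, where its probe was undetected.

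By class, 10 of 12 H2B genes fell, 8 of 10 H4 genes and 4 of 9 H3 genes. None of the 13 H2A genes and none of the 3 H1 genes was called at an adjusted p below 0.05. Class medians were -1.25 for H2B, -1.15 for H4, -0.34 for H3 and -0.06 for H2A. Of the 2 H2B genes that did not fall, H2bc8 differed by -0.12 ± 0.12 and H2bc4 rose. Just outside the threshold were H4c4 at -0.50 ± 0.11 (adjusted p = 0.0543) and the linker histone H1f2 at 0.35 ± 0.08 (adjusted p = 0.0544), opposite in sign to its class mates H1f5 (-1.26 ± 0.31) and H1f1 (-0.78 ± 0.23), which were not called either. Intensity is in part a property of the probe, so no gene's level is set against another's, but brightness moved with the call: 13 of the 24 genes not called, among them 10 H2A genes, had control intensities above 11.79, the 95th percentile of all genes tested, and 0 of the 22 lower genes did. The 3 dimmer H2A probes had measured differences of -0.89 ± 0.22 (H2ac19, adjusted p = 0.0820), -0.37 ± 0.10 (H2ac4, adjusted p = 0.0956) and -0.37 ± 0.12 (H2ac18, adjusted p = 0.212), genes chosen after their values were seen. Whether bright probes had room to report a fall was not tested. Histone genes have near-identical coding sequences, so a probe may read several of them. How fully the arrays report transcripts that lack a poly(A) tail was not tested. A second probe fell less for H2bc6 (-0.57) and H2bc21 (-0.15) and more for H2bc12 (-1.63) than the probe used.

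**Figure D3:**
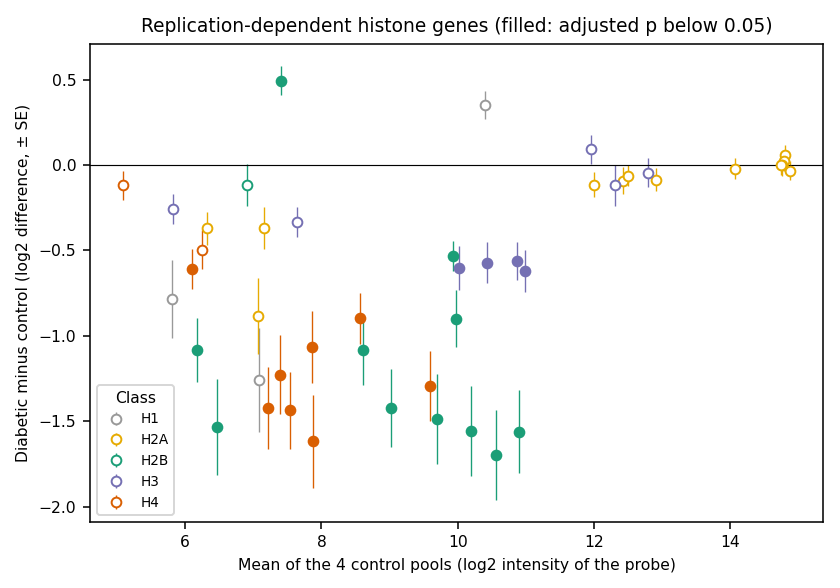
Log2 difference of the 8 diabetic from the 4 control samples, ± SE (y axis), against the control mean of the probe's log2 intensity (x axis) for the 47 replication-dependent histone genes, coloured by class; filled points had an adjusted p below 0.05. The H2B and H4 genes that fell lie between -0.53 and -1.70, and the bright H2A probes at the right lie near 0.

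The 22 lower histones were summarized by their median in each sample. They were called from these same samples, so their gap to the controls is partly given by the selection. Relative to the control mean, diabetic pools 1 to 4 had median values of -1.54, -1.20, -1.08 and -1.12 over these genes, NTD embryos 1 to 4 had -1.51, -1.34, -1.61 and -0.16, and the 4 control pools lay between -0.05 and 0.05. The other 7 diabetic samples were thus far below the controls while NTD embryo 4 was near them. The 20 other lower genes did not share this pattern as a set: NTD embryo 4 had a median of -0.71 over them, and the 7 remaining diabetic samples had -0.64 to -0.40. Single genes differed. NTD embryo 4 was the highest diabetic sample for some, among them H4f16 (5.67), Hspa1a (6.03) and Erich5 (10.02). It was the lowest for others, among them Dnm3os (7.01) and Ppp6r3 (6.56). Without NTD embryo 4, 26 histones of the list were called lower. Without control pools 1, 2, 3 and 4 in turn, 11, 9, 9 and 11 were, and 0 were against control pools 1 and 2 alone. Replacement histones, which are polyadenylated and made throughout the cell cycle, had 0 of 10 called and a median of 0.02. S-phase genes (0 of 15 called, median 0.02), mitosis genes (0 of 11, median -0.01) and factors of histone transcription and 3′ end processing (0 of 12, median -0.02) likewise gave no call. Only 0.954% of all genes were called, so lists of this size, like other short lists below, would mostly hold no call. Under scaling to a common median, which moved the median of all genes to -0.08, the medians of these 4 lists in the order given were -0.02, -0.06, -0.10 and -0.13. At an unadjusted p below 0.05 these 4 lists held Ccne2, cyclin E2, lower at -0.26 ± 0.10, Gins1, of the replicative helicase, higher at 0.14 ± 0.06, and Mzt1, of the gamma-tubulin ring complex, higher at 0.71 ± 0.16 (adjusted p = 0.0608).

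Promoters of the H2B and H4 genes that fell most are shown. Letters are from RefSeq for GRCm38.p6 and run from 250 bases before to 50 after the gene start. Capitals mark CCAAT and TATAAA on either strand. H2bc11 lies on the plus strand at chr13:22042948-22043247 and H4c12 on the minus strand at chr13:21750504-21750803.
H2bc11: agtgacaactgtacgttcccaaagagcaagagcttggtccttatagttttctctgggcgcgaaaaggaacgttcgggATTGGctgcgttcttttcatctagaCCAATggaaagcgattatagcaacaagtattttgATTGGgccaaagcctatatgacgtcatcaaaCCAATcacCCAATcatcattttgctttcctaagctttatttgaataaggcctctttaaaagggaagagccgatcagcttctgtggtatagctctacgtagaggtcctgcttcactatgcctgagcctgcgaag
H4c12: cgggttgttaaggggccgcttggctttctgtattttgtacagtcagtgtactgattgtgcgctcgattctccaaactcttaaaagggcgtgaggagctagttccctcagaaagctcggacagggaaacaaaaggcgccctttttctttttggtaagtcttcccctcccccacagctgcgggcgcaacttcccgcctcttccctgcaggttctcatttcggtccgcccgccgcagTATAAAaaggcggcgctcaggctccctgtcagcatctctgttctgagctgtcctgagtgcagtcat

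CCAAT, searched on both strands, occurred 5 times in the H2bc11 window and was in all 10 windows of the 9 lower H2B genes with an entry, in 1 of the 8 windows of the lower H4 genes, and in 37.4% of all 32851 promoter windows. TATAAA was in 4 of the 10 H2B windows and 7 of the 8 H4 windows, against 13.6% of all windows. The octamer ATTTGCAT, known as the Oct-1 element of H2B promoters, was in 5 of the 10 H2B windows, 0 of the 8 H4 windows and 1.74% of all windows. H2A genes, which were not called, also held CCAAT in 13 of 13 windows and TATAAA in 8 of 13. The octamer was also in 3 of the 13 H2A windows and in the 1 window of an H2B gene measured and not called lower. That H2B window held the other elements searched for as well. The octamer was therefore not confined to the genes that fell. All of these are letter matches within the windows searched and carry no measurement of binding.

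Noncoding transcripts also held large falls, with Mir17hg, Dnm3os and 6430411K18Rik each lower by at least 2-fold. RefSeq classes 118 of the genes tested (1.61%) as long noncoding RNAs. Of the 118, 5 fell (Mir17hg, Dnm3os, 6430411K18Rik, Mir99ahg and Snhg12) and 2 rose (Fzd10os and 4933412E12Rik). Over all genes 0.572% fell and 0.381% rose. The genes 4933412E12Rik and Mir99ahg fall outside the rule for named genes and were chosen after their values were seen. Mir17hg is the primary transcript of the miR-17 to miR-92a cluster, whose microRNAs promote proliferation and are required for normal growth of the mouse embryo. Its log2 intensity was 11.32, 11.50, 11.30 and 11.51 in control pools 1 to 4, 9.40, 9.50, 9.80 and 10.01 in diabetic pools 1 to 4, and 10.47, 9.64, 9.53 and 9.89 in NTD embryos 1 to 4. The 8 diabetic samples lay below all 4 control pools, with NTD embryo 1 the nearest.

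The fall of Mir17hg was -1.62 ± 0.16 (95% interval -1.96 to -1.29, adjusted p = 1.28e-04), or 3.08-fold. Its probe reads the host transcript, and mature microRNAs were not measured on these arrays. The mature sequences, from RefSeq for GRCm38.p6, are shown with the seed (bases 2 to 8) in capitals and lie on the plus strand within chr14:115043684-115044496. miR-17-5p and miR-20a-5p share 1 seed and miR-19a-3p and miR-19b-3p another, while miR-18a-5p and miR-92a-3p have their own.
mmu-miR-17-5p: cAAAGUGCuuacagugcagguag
mmu-miR-20a-5p: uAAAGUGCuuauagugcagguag
mmu-miR-18a-5p: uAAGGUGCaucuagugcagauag
mmu-miR-19a-3p: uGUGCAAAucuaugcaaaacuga
mmu-miR-19b-3p: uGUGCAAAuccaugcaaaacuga
mmu-miR-92a-3p: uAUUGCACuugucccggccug

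Dnm3os, the transcript opposite to Dnm3 from which miR-199a and miR-214 are cut and which is needed for normal growth and skeletal development in the mouse, stood at 8.68, 8.79, 8.73 and 8.99 in the control pools, 7.42, 7.43, 7.75 and 7.74 in the diabetic pools and 8.63, 7.48, 7.27 and 7.01 in the NTD embryos. NTD embryo 1 was just below the lowest control pool, and the other 7 diabetic samples were far below. The difference was -1.21 ± 0.21 (adjusted p = 0.0121), and a second, dim probe gave -0.35 ± 0.09. Mir99ahg, named for its cluster with miR-99a, let-7c and miR-125b, fell by 0.76 ± 0.11 (adjusted p = 0.00517), with all 8 diabetic samples at 5.00 to 5.63 and the controls at 6.06 to 6.29. Its second probe gave -0.22 ± 0.15. None of the microRNAs shown for these hosts shares a seed with another.
mmu-miR-199a-5p: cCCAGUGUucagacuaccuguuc
mmu-miR-214-3p: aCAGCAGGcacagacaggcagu
mmu-miR-99a-5p: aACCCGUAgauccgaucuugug
mmu-let-7c-5p: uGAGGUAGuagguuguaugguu
mmu-miR-125b-5p: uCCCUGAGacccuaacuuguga

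6430411K18Rik had the smallest adjusted p of all genes, 3.35e-06. RefSeq gives it the synonym PEG11as, the transcript opposite to the imprinted gene Rtl1 on chromosome 12, and places Mir433 within it. Control pools stood at 6.30, 6.34, 6.30 and 6.26, diabetic pools at 4.88, 5.07, 5.27 and 5.09, and NTD embryos at 5.27, 5.25, 5.20 and 5.34. The spread within each group was small beside the gap between diabetic and control samples, and the difference was -1.13 ± 0.08. Its neighbours in the same imprinted region, the noncoding Meg3 and Rian, differed by -0.30 ± 0.16 and -0.33 ± 0.19 and were not called.
mmu-miR-433-3p: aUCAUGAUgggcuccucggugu

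A list of 8 microRNA and snoRNA host transcripts, which does not include Dnm3os, Mir99ahg or 6430411K18Rik, had 2 members lower, Mir17hg and the snoRNA host Snhg12 (-0.43 ± 0.09, adjusted p = 0.0279), and a median of -0.31. Dleu2, host of miR-15a and miR-16-1, differed by -0.38 ± 0.14 without passing. Fzd10os, beside the Wnt receptor gene Fzd10, rose by 0.30 ± 0.07 (adjusted p = 0.0495), just inside the threshold, and lost its call in 11 of the 12 fits without 1 sample.

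Erich5, a protein-coding gene on chromosome 15, fell as far as H2bc11. Control pools stood at 10.67, 11.03, 10.84 and 10.97, diabetic pools at 8.75, 8.97, 9.06 and 9.36 and NTD embryos at 9.47, 9.001, 8.84 and 10.02. No diabetic sample reached the lowest control pool, and NTD embryo 4 was the nearest. The difference was -1.70 ± 0.19 (95% interval -2.09 to -1.30, adjusted p = 3.36e-04). Hspa1a, the stress-inducible HSP70 chaperone, stood at 6.40, 6.76, 6.62 and 6.43 in control pools, 5.14, 5.21, 5.08 and 4.81 in diabetic pools and 4.81, 5.63, 4.44 and 6.03 in NTD embryos. All 8 were lower, and the probe was detected in 4 of the 8 and in 4 of 4 control pools. The fall was -1.40 ± 0.22 (adjusted p = 0.00652). Of 17 heat shock genes it was the 1 that was called, and the list's median was -0.06; the HSP40 gene Dnajb1 differed by -0.30 ± 0.10 and the ER chaperone Hspa5 by -0.17 ± 0.13.

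**Figure D4:**
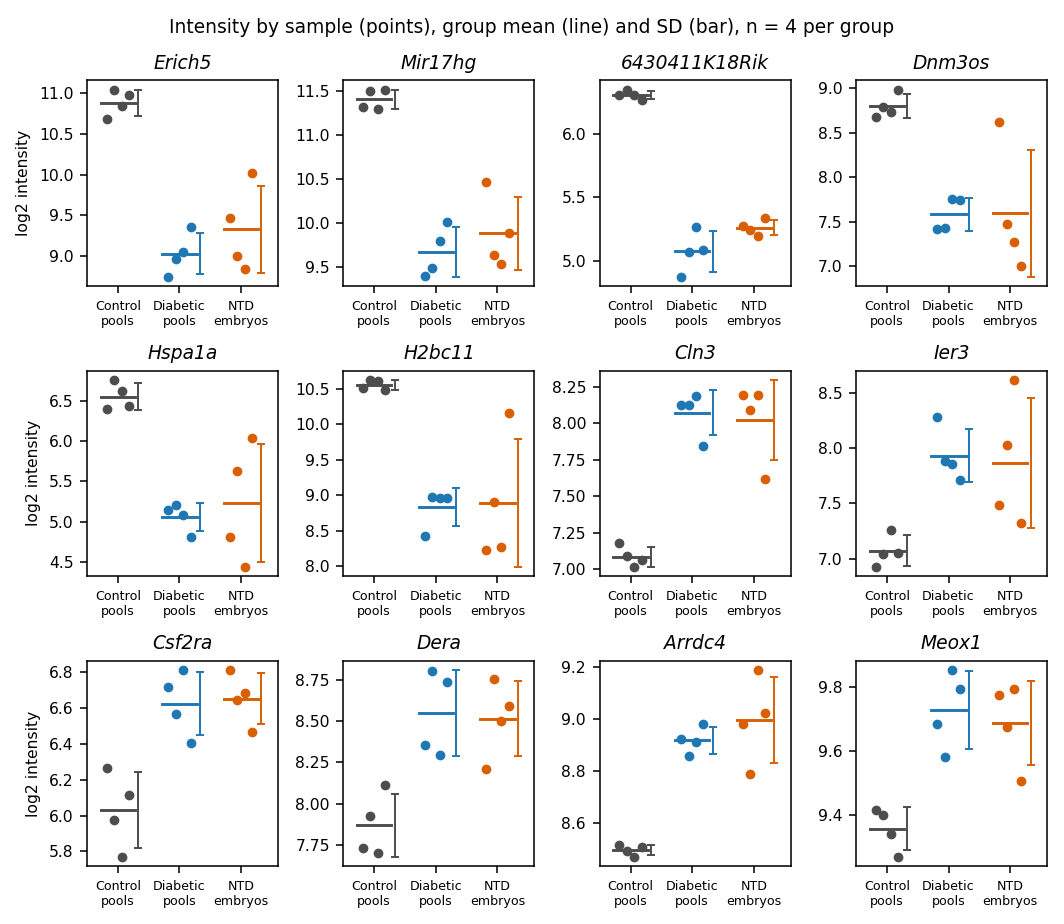
Log2 intensity (y axes, each with its own range that does not start at 0) of 12 called genes in the 3 groups; points are samples, horizontal lines group means and vertical bars SD (n = 4). In Erich5, Mir17hg, 6430411K18Rik and Hspa1a the diabetic pools and NTD embryos lie below every control pool, and in Cln3, Ier3, Csf2ra, Dera, Arrdc4 and Meox1 above.

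Cln3 rose most. It encodes a lysosomal membrane protein that is defective in juvenile neuronal ceroid lipofuscinosis. Its log2 intensity was 7.18, 7.09, 7.02 and 7.06 in the control pools, 8.13, 8.12, 8.19 and 7.84 in the diabetic pools and 8.19, 8.09, 8.19 and 7.62 in the NTD embryos. Every diabetic sample was above every control pool, NTD embryo 4 by the least. The rise was 0.96 ± 0.10 (95% interval 0.74 to 1.17, adjusted p = 2.67e-04), or 1.94-fold. It was the 1 called member among 14 lysosome and ceroid lipofuscinosis genes, whose median was -9.05e-04; Ctsl, a cathepsin, differed by 0.17 ± 0.07 and Hexa, a hexosaminidase subunit, by 0.19 ± 0.09, neither called. Ctsh, a cathepsin outside the list, rose by 0.36 ± 0.08, and Mcoln3, an endolysosomal cation channel, fell by 0.42 ± 0.07. Both were chosen after their values were seen. Their calls were lost in 10 (Ctsh) and 3 (Mcoln3) of the 12 fits that left out 1 sample.

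Ier3 stood at 6.93, 7.05, 7.26 and 7.05 in control pools, 8.28, 7.88, 7.86 and 7.71 in diabetic pools and 7.49, 8.03, 8.61 and 7.32 in NTD embryos. The groups did not overlap, with the NTD embryos spread from just above the controls to the highest value of all. It rose by 0.83 ± 0.18 (adjusted p = 0.0495). Among 18 immediate early genes, which are switched on within minutes of a stimulus, Ier3 and Ier2 (0.56 ± 0.11, adjusted p = 0.0266) rose and the AP-1 subunit Fosl2 fell (-0.40 ± 0.08, adjusted p = 0.0349). Of the 12 fits that left out 1 sample, the call was lost in 9 for Ier3, in 6 for Ier2 and in 8 for Fosl2. At an unadjusted p below 0.05, 6 of the 18 were higher and 1 lower, where 6.42% and 5.59% of all genes were, and the median was 0.09, or 0.03 to 0.17 without 1 sample in turn. Egr1 was at 0.74 ± 0.31 with 8.35 in NTD embryo 1 and 10.94 in NTD embryo 4, Atf3 at 0.41 ± 0.13, Klf6 at 0.25 ± 0.06 and Junb at 0.38 ± 0.17, and Fos was at -0.08 ± 0.45. None of these 5 was called. Under scaling to a common median, the median of the list was -0.02.

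Csf2ra, the alpha chain of the receptor for GM-CSF, rose by 0.61 ± 0.10 (adjusted p = 0.00747), from 5.77 to 6.27 in control pools to 6.41 to 6.81 in the diabetic samples. Dera, an aldolase that breaks down deoxyribose phosphate, rose by 0.66 ± 0.12 (adjusted p = 0.0133), with controls at 7.70 to 8.11 and diabetic samples at 8.21 to 8.80. Neither pair of ranges overlapped. Arrdc4, an arrestin whose expression follows glucose through the transcription factors Mlxip and Mlxipl, had control pools at 8.51, 8.49, 8.47 and 8.51 and all 8 diabetic samples between 8.79 and 9.19. Its rise was 0.46 ± 0.07 (adjusted p = 0.00639). In the list of 4 glucose-responsive genes with a measured probe, Arrdc2 was at 0.18 ± 0.08, Mlxipl at 0.05 ± 0.15 and Mlxip at 0.01 ± 0.09, none of them called.

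Further rises were smaller. The median over the 28 higher genes was 0.35 to 0.49 above the control mean in each of the 8 diabetic samples. These genes were called from the same samples by a fit that favours an even rise, so this evenness is partly given by the selection. Mogat2, which makes diacylglycerol, rose by 0.45 ± 0.08. Ly6e, a GPI-anchored surface protein, rose by 0.44 ± 0.09. Gchfr, the feedback regulator of GTP cyclohydrolase in tetrahydrobiopterin synthesis, rose by 0.40 ± 0.06 (adjusted p = 0.00639). Ccdc115, a V-ATPase assembly factor, rose by 0.42 ± 0.09, and the F-box genes Fbxo36 and Fbxo2 by 0.39 ± 0.09 and 0.36 ± 0.07. Krt23, a keratin, rose by 0.38 ± 0.08. Castor1, the cytosolic arginine sensor that acts on mTORC1, rose by 0.38 ± 0.08, and Col9a3, a chain of cartilage collagen IX, by 0.38 ± 0.08 (adjusted p = 0.0299). Col9a3 was the 1 called member of 32 extracellular matrix genes, whose median was -0.06. Several of these calls hold in few settings. Of the 12 fits that left out 1 sample, the call was lost in 10 for Castor1 and in 9 for Krt23, Fbxo36, Fbxo2 and Ly6e. It was lost in 8 for Ccdc115 and in 6 for Col9a3. Over all 25 alternatives Castor1 kept its call in 4, with limma adjusted p from 0.0279 to 0.719.

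The histone H2bc4 was the exception of its class. Control pools stood at 7.36, 7.48, 7.38 and 7.39, diabetic pools at 7.62, 7.70, 7.86 and 7.90 and NTD embryos at 8.00, 8.04, 8.14 and 7.90. All 8 diabetic samples were higher, and NTD embryo 4 was not set apart as it was for the histones that fell. The rise was 0.49 ± 0.09 (adjusted p = 0.0121).

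The remaining called genes, other than Spats2, lie outside the rule for named genes and were chosen after their values were seen. Ifngr2, a chain of the interferon gamma receptor, fell by 0.66 ± 0.10 (adjusted p = 0.00639), although its 2 other probes gave -0.04 and -0.07. Nprl3, a subunit of the GATOR1 complex that restrains mTORC1 and whose introns hold alpha-globin enhancers, rose by 0.74 ± 0.15 with control pools spread from 7.02 to 8.05; its second probe gave 0.07. Gad2, an enzyme of GABA synthesis, was detected in all 4 control pools and in none of the 8 diabetic samples (fall of at least 1.07-fold, adjusted p = 0.0163). Abat, which degrades GABA, fell by 0.35 ± 0.07. Arg1, arginase 1, rose by 0.29 ± 0.05, with 9.77 to 9.91 in control pools and 10.04 to 10.16 in the diabetic samples. The MHC genes H2-D1 (class I) and H2-DMa (class II peptide loading) rose by 0.32 ± 0.07 each, the latter at an adjusted p of 0.0491. The other rises were those of Itpk1, an inositol phosphate kinase (0.33 ± 0.07), Best1, a chloride channel (0.32 ± 0.07), Stub1, a ubiquitin ligase of chaperone clients (0.31 ± 0.06), Lipt2, a lipoyltransferase (0.28 ± 0.06) and 4933412E12Rik (0.36 ± 0.06). Falls were also found for 4930445K14Rik (-0.53 ± 0.08), Ppp6r3, a phosphatase 6 subunit (-0.52 ± 0.12), Spats2 (-0.49 ± 0.08, detected in 3 of 8), Mex3c, an RNA-binding ubiquitin ligase (-0.45 ± 0.09), Egfem1 (-0.41 ± 0.09, detected in 1 of 8 diabetic samples) and Mrpl21, of the mitochondrial ribosome (-0.32 ± 0.07). Among the genes of this paragraph the call was lost in 10 of the 12 fits without 1 sample for Best1, Ppp6r3 and Mrpl21. It was lost in 9 for Egfem1, H2-DMa, Lipt2 and Itpk1, in 8 for H2-D1 and Stub1 and in 7 for Abat and Mex3c. Across the 21 called genes with further detected probes, 24 of 25 such probes had the direction of the probe used, 13 of them at an unadjusted p below 0.05. The exception was a probe of Enah at 0.04.

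Genes of neural tube closure were followed as a list because 4 of the 8 diabetic samples carry the defect. Of 22 measured, 1 was called: Enah, an actin regulator of the Ena/VASP family that takes part in neurulation in the mouse, fell by 0.65 ± 0.15 (adjusted p = 0.0495). Its intensities were 7.46, 7.59, 7.93 and 7.47 in control pools, 6.996, 6.82, 7.02 and 7.01 in diabetic pools and 7.56, 6.72, 7.02 and 6.56 in NTD embryos. NTD embryo 1, which carries a defect, lay within the control range and the other 7 below it. Its 2 other probes gave 0.04 ± 0.10 and -0.11 ± 0.10, and the call was lost in 10 of the 12 fits that left out 1 sample and in 16 of 25 alternatives in all, where adjusted p ran from 0.00394 to 0.538. The median of the list was -0.01. Lrp6, a Wnt co-receptor, was at -0.17 ± 0.07, the actin-severing Cfl1 at 0.27 ± 0.18, the roof plate factor Lmx1a at -0.28 ± 0.18 and the folate receptor Folr1 at -0.12 ± 0.09, none called. Among 19 Wnt pathway genes 0 were called, with Axin2, a target and inhibitor of the pathway, at -0.32 ± 0.08 (adjusted p = 0.0850), and the receptors Fzd8 and Fzd5 at -0.30 ± 0.08 and -0.51 ± 0.16.

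Hox genes set position along the body axis. None of 30 was called by limma after adjustment. At an unadjusted limma p below 0.05, 14 were higher and 0 lower, where 6.42% and 5.59% of all genes were. A difference above 0 was found for 28 of the 30 and for 53.4% of all genes. The median of the list was 0.19. The smallest p-values were those of Hoxc9 (0.42 ± 0.10, adjusted p = 0.0647), Hoxd12 (0.46 ± 0.11, adjusted p = 0.0758), Hoxb7 (0.32 ± 0.09) and Hoxb4 (0.34 ± 0.09). Hoxc9 stood at 8.86 to 9.20 in control pools and 9.31 to 9.89 in diabetic samples, highest in NTD embryo 4. The list's median per sample was -0.03 to 0.07 in control pools and 0.15 to 0.45 in diabetic samples, again with NTD embryo 4 highest; under scaling to a common median the list's median was 0.10. Meox1, a homeobox gene of the somites, was the 1 called member of 8 somite and caudal genes (0.35 ± 0.07, adjusted p = 0.0316), and the caudal gene Cdx2 was at 0.57 ± 0.16. The call of Meox1 was lost in 8 of the 12 fits that left out 1 sample.

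Cholesterol synthesis genes had 0 of 11 called, with 8 higher and 0 lower at an unadjusted limma p below 0.05 and a median of 0.21. Over all genes 6.42% were higher and 5.59% lower at that level. Mvd, mevalonate diphosphate decarboxylase, was at 0.32 ± 0.09, the final reductase Dhcr7 at 0.33 ± 0.10, lanosterol synthase Lss at 0.22 ± 0.09 and Hsd17b7 at 0.22 ± 0.08. The list's median per sample was -0.0038 to 0.04 in control pools and 0.10 to 0.30 in diabetic samples. Glycolysis and hypoxia genes had 0 of 13 called, 5 higher and 0 lower at that level and a median of 0.17, with aldolase C (Aldoc) at 0.49 ± 0.16, the hypoxia- and stress-induced mTORC1 inhibitor Ddit4 at 0.48 ± 0.16, enolase 2 (Eno2) at 0.58 ± 0.20 and the oxygen sensor Egln3 at 0.29 ± 0.10. Both lists kept a positive median under scaling to a common median, at 0.12 and 0.15. Oxidative phosphorylation genes (0 of 61 called, median 0.03), antioxidant genes (0 of 17, median 0.05) and one-carbon genes (0 of 11, median 0.04) lay near 0, and their medians turned to -0.03, -0.06 and -0.04 under scaling to a common median. Genes of endoplasmic reticulum and amino acid stress had 0 of 19 called and a median of -0.10, with Herpud1, of ER-associated degradation, at -0.32 ± 0.08 (adjusted p = 0.0771) and the stress-induced Ddit3 at -0.37 ± 0.11. The p53 and cell death list had 0 of 17 called, with Mdm2 at -0.30 ± 0.07 and Bbc3 at 0.33 ± 0.09.

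**Figure D5:**
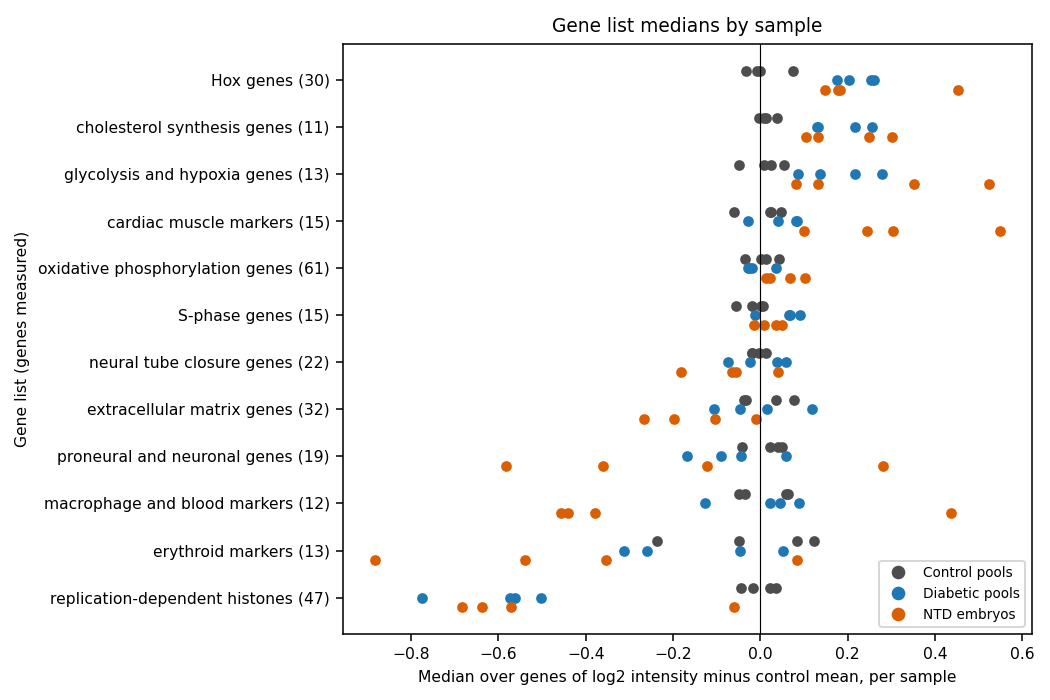
Median over the genes of a list of log2 intensity minus the control mean (x axis), 1 point per sample, for 12 gene lists (y axis, number of genes measured in parentheses); grey points are control pools, blue diabetic pools and orange NTD embryos. The Hox, cholesterol and glycolysis medians of all 8 diabetic samples lie above those of the 4 control pools, and the erythroid, neuronal and macrophage medians of the NTD embryos are spread widely.

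Markers of cell types give the tissue make-up of these whole embryos; in such samples fewer cells of a type and less RNA per cell cannot be told apart. Red cell markers had 0 of 13 called and all 13 below 0 (median -0.26), where 53.4% of all genes lay above 0. The adult-type globins Hbb-bs and Hbb-bt were at -0.83 ± 0.34 and -0.83 ± 0.36. The erythroid nuclear protein Hemgn was at -0.64 ± 0.23 and the red cell surface protein Ermap at -0.59 ± 0.22. The red cell list median ran from -0.24 to 0.12 in control pools and from -0.88 to 0.08 in diabetic samples. Neuronal genes had 0 of 19 called and, at an unadjusted p below 0.05, 1 higher and 5 lower, where 6.42% and 5.59% of all genes were. Their median was -0.12, from -0.19 to -0.05 without 1 sample in turn and -0.23 under scaling to a common median. The smallest p-values were those of Rbfox3 (0.46 ± 0.13), Map2 (-0.27 ± 0.09), Neurog2 (-0.41 ± 0.15), Neurod4 (-0.38 ± 0.14) and Dcx (-0.36 ± 0.15). Per sample the neuronal median was -0.58 to 0.28 in diabetic samples. Cardiac markers had 0 of 15 called and all 15 above 0 (median 0.18), with the natriuretic peptide Nppb at 0.43 ± 0.10 (adjusted p = 0.0592), Myh6 at 0.36 ± 0.14, the muscle LIM protein gene Csrp3 at 0.25 ± 0.10 and the cardiac transcription factor Gata4 at 0.18 ± 0.08. Their list median was -0.06 to 0.05 in control pools, -0.03 to 0.08 in diabetic pools, and 0.10, 0.24, 0.55 and 0.30 in NTD embryos 1 to 4, so that the diabetic pools overlapped the controls and the NTD embryos did not. Macrophage and blood markers (0 of 12, median -0.14) included Mrc1 at -0.45 ± 0.15. Placenta and decidua markers (0 of 4) and yolk sac markers (0 of 4) had medians of 0.00 and 0.01. The part of these shifts in the gene differences above was not tested.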

How the data were processed

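Gene expression was measured on 12 Illumina bead arrays, 1 per RNA sample, from 200 ng of RNA. The authors deposited average signal intensities per probe without normalization, with detection p-values, per the file headers. A second deposited table holds linear intensities that the authors processed by a method not given in the sources used here. GenomeStudio is named in the submitters' processing notes. With limma 3.58.1 in R 4.3.3, neqc corrected background with statistics inferred from detection, followed by an offset of 16, quantile normalization and log2. Probes with 1 symbol (23340 of 32766), updated through Entrez identifiers, were kept at a detection p below 0.05 on at least 4 of 12 arrays, and the brightest stood for its gene, giving 7341 genes, 2661 with several kept probes. Groups came from the labels. Diabetic (8) and control (4) samples were compared with lmFit and eBayes, two-sided, with Benjamini-Hochberg adjustment over all genes, threshold 0.05; the pools and NTD embryos also had fits of their own. The fit was tested on simulated data. Log2 differences are given ± SE. Where no array of a group detected a probe, only a bound is given, the control mean over the mean of the higher of its own value and the lowest detected value per array, written as at least N-fold. Named genes were the 15 largest rises and falls among called genes without overlap, leaving out clone names, the called and up to 4 further members of each list, and the 5 smallest p-values between NTD embryos and pools; the 5 genes on each side of the threshold were named only where another clause names them. The members and lists were chosen with earlier results of these data known. P-values measure the spread between these samples; their number limits the precision. Alternatives changed background correction, scaling, source table, filter, weights, covariates, probes, test and samples.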

Additional observations from a re-analysis of the deposited data

Results flagged for a closer look

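For each called gene, the highest or lowest sample of a group was set against the rest by Dixon's ratio, the gap to the nearest sample over the range of the group. Of 280 gene and group combinations examined, 33 passed the critical value. Chance passes about 1 in 20 where samples have equal spread and combinations are independent. The 8 diabetic samples mix pools with single embryos and contain the diabetic pools and the NTD embryos, which were also examined as groups. Histone probes may also read several genes. The 33 therefore cannot be set against that rate. Among the 8 diabetic samples 20 passed, 18 of them through NTD embryo 4. For the histone genes NTD embryo 4 was the highest sample, with ratios of 0.613 for H2bc11, 0.622 for H2bc6, 0.534 for H2bc7, 0.738 for H2bc18, 0.570 for H2bc3, 0.664 for H2bc21, 0.570 for H4c12, 0.617 for H4c18, 0.555 for H4c17, 0.591 for H4c1, 0.680 for H4c9, 0.675 for H4f16, 0.708 for H4c11, 0.662 for H4c14, 0.643 for H3c6, 0.665 for H3c1 and 0.583 for H3c4. It was the lowest of the 8 for Arg1 (0.657). NTD embryo 1 was the highest of the 8 for Dnm3os (0.541) and Enah (0.538).

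In groups of 4, 13 combinations passed. NTD embryo 4 stood apart from the other NTD embryos for H4c1 (0.839), H4c9 (0.845), H4f16 (0.851) and H3c7 (0.885), and NTD embryo 2 for Lipt2 (0.844). Among diabetic pools, pool 1 stood apart for H2bc11 (0.967) and Mcoln3 (0.991) and pool 2 for Enah (0.867). Among control pools, pool 1 stood apart for H2-DMa (0.886) and 4933412E12Rik (0.904), pool 2 for H4c6 (0.887) and H2-D1 (0.974), and pool 4 for Gad2 (0.862). The cause of these values was not tested.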

How the results depend on the processing

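The main count of 70 genes (28 higher, 42 lower) became 125 (6 higher, 119 lower) under scaling to a common median, which shifts the median of all genes to -0.08, so that 4.80% of calls were higher against 40% in the main setting. The authors' deposited intensities gave 32 (12 higher, 20 lower) and array weights 265 (133 higher, 132 lower), of which 248 were common to pools and NTD embryos; testing all kept probes gave 17 higher calls. Under each other setting the count of common changes equalled the total, apart from 62 of 63 with 3 groups in 1 fit. Without 1 sample in turn the count ran from 22 to 127, with 4 to 56 higher and 17 to 71 lower. Without control pools 3 and 4, it was 4 (1 higher, 3 lower). A replicate block gave 56 (19 higher, 37 lower). Deviations of same-numbered samples from their group means had correlations of -0.27 to 0.30. Differently numbered samples were not set beside them, so these values cannot decide whether the numbers pair the samples. The main fit treats the samples as unpaired. Over the 25 alternatives 0 of 1739 gene values reversed, 19 genes kept their call without any 1 sample (7 of the histone list), and Erich5, Mir17hg, Cln3 and 6430411K18Rik kept it wherever they were tested. The NTD embryos and pools gave 0 calls in every setting run. Of 40 list medians, 17 changed sign under scaling to a common median. The cause of each change was not tested. Dim probes limit some falls to bounds: Gad2 in all 8 diabetic samples, H2bc18 and H4f16 in the diabetic pools, and Spats2 and Egfem1 in the NTD embryos.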
